A study of Homo sapiens with 6 samples.

Results

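The peroxisome proliferator-activated receptors (PPARs) and a set of their lipid target genes were described in bulk RNA-seq of 1CT, an immortalized human colonic epithelial cell line (HCEC), and of 1CT-A, its APC depleted version. The 10 genes are the receptor genes PPARG, PPARA and PPARD, the partner genes RXRA and RXRB, the ligand carrier gene FABP5, and the target genes PDK4, ANGPTL4, CPT1A and PLIN2. They make up 10 of the 24462 gene symbols counted. They were chosen by name as a pathway, with earlier comparisons of the same 1CT and 1CT-A libraries known, so every difference between the cell lines in these 10 genes is a description and supports nothing on its own. All 10 passed the filter on low counts.

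PPARs are nuclear receptors that bind fatty acids and their derivatives. Each binds DNA as a pair with a retinoid X receptor (RXR), on elements built from a repeat of the core motif AGGTCA with 1 base between the copies, and turns on genes for the uptake, storage and burning of fat. PPARA is best known from liver, PPARD is widely expressed, and PPARG drives fat cell formation and is also abundant in the epithelium of the colon.

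There were 3 libraries of 1CT (genotype WT, labelled as colonic epithelial progenitors) and 3 of 1CT-A (genotype APC KD), all from untreated cells in medium with 20 ng/ml EGF, 1 μg/ml hydrocortisone, 10 μg/ml insulin, 2 μg/ml transferrin, 5 nM sodium selenite and 2% FBS. APC encodes a scaffold of the complex that degrades β-catenin. How 1CT-A was made and whether it is 1 clone are not given for these libraries, nor is whether the replicates came from separate cultures, so the spread between libraries may be technical. The question was how the transcriptome differs once APC is depleted.

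The libraries held 7788679 to 8452258 counts in 1CT and 11158108 to 12602988 in 1CT-A. Levels are counts per 1000000 counts of the library (CPM), and means are given ± SD over the 3 libraries of a cell line. Reads of these libraries come from the 3′ end of each transcript, so that a transcript gives about the same number of reads whatever its length, and CPM is used without a length correction. APC itself lay between 43.8 and 49.3 CPM in 1CT and between 30.0 and 34.4 CPM in 1CT-A, with a log2 fold change of -0.58 (standard error 0.09). The label of colonic epithelium was not borne out by marker genes, since 8 of 12 colon epithelium markers (EPCAM, VIL1, CDX1, CDX2, KRT20, LGALS4, MUC2 and FABP1) had at most 3 counts in every library. The highest 2, KRT18 and KRT19, reached means of 11.2 and 3.33 CPM in 1CT. Mesenchymal markers were abundant, with VIM at a mean of 1878 CPM and COL1A1 at 1894 CPM in 1CT.

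The promoter windows of the 3 genes with the largest differences are shown first. They are the 250 bases before the transcription start in RefSeq (GRCh38.p14), written 5′ to 3′ on the gene's strand. The authors' counts were made on hg19, so these coordinates describe RefSeq and not the counting. Capitals mark the PPAR core motif AGGTCA, the TATA box TATAAA and the GC box GGGCGG on either strand. RefSeq holds 6 starts for PPARG, of which the outermost is shown, and 3′ reads do not tell which start was used.

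ANGPTL4, chr19:8363905-8364154, plus strand: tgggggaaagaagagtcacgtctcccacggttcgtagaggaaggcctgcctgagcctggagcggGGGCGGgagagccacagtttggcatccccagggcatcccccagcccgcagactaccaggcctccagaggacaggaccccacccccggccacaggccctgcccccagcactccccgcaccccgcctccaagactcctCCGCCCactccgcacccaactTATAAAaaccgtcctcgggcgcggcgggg
PDK4, chr7:95596517-95596766, minus strand: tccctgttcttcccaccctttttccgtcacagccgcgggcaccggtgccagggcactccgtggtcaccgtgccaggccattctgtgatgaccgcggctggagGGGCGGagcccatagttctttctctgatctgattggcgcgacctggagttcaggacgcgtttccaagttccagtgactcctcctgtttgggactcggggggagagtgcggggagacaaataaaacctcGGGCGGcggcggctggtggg
PPARG, chr3:12287118-12287367, plus strand: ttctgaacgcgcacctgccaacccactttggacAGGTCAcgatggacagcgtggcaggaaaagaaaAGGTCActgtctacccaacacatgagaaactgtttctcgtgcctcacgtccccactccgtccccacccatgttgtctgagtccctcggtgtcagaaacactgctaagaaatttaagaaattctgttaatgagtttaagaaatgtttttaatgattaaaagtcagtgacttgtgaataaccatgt

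The ANGPTL4 window holds a TATA box that begins 29 bases before the start and 2 GC boxes. The PDK4 window holds 2 GC boxes and neither of the other motifs. The PPARG window holds 2 core motifs, which begin 217 and 184 bases before the start and so do not form a repeat with 1 base between. Windows were found for 9 of the 10 genes, 17 windows in all. The repeat, AGGTCA followed by any base and a further AGGTCA on either strand, was in none of the 17 and in 0.0171% of all 35116 windows. Only this exact form was searched, and a repeat so rare in all windows was hardly to be met in 17. Introns and more distant regions were not read, so its absence tells nothing on whether PPARs bind near these genes. The core motif was in 3 of the 17 windows, all of PPARG, and in 12.1% of all windows. The TATA box was in 4, of ANGPTL4, PLIN2 and PPARG, and in 10.7% of all windows, and the GC box was in 9, against 42.6%. The PPARG windows chr3:12288810-12289059 and chr3:12288820-12289069 overlap, so the same core motif and the same TATA box are counted again there. The windows differ widely in base composition, from 41.6% G and C in 1 PPARG window to 89.2% in 1 RXRA window.

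In the comparison of 1CT-A with 1CT, PPARG was higher and ANGPTL4, PDK4 and PPARA were lower. FABP5 was also higher. PLIN2 and CPT1A were near the same level in both cell lines. A gene is called below where edgeR's quasi-likelihood test over all 12514 genes tested gave an adjusted p under 0.05, which was the case for 51.0% of these genes. Of the 10 genes, 5 were called, 2 of them higher, against 25.0% of all genes, and 3 lower, against 26.0%. Among the 3 lower, PDK4 passed the filter through the group where it was high. With the limits that the methods of the study name, 2-fold and p under 0.01 without adjustment, the 3 genes PPARG, PDK4 and ANGPTL4 passed, and 13.4% of all genes did. In 8 of the 10 genes the CPM values of the cell lines did not overlap, as in 59.7% of all genes. Nothing is read from these counts, since the genes were chosen with this comparison known. The median log2 fold change of the 10 genes was -0.10, and that of all genes was -0.01.

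**Figure D1:**
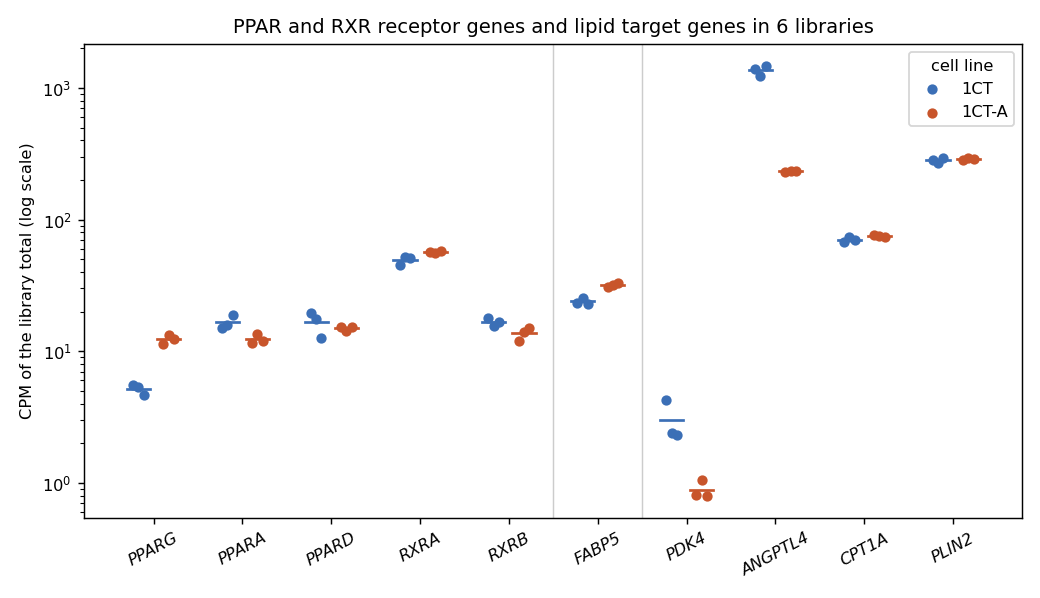
CPM of the 10 genes on a log axis in each of the 3 libraries of 1CT (blue) and of 1CT-A (orange), with a bar at each mean. PPARG sits between 4.62 and 5.56 CPM in 1CT and between 11.4 and 13.3 CPM in 1CT-A, while ANGPTL4 lies between 1228 and 1479.6 CPM in 1CT and between 232 and 234 CPM in 1CT-A.

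The receptors came to a similar sum in both cell lines but in other proportions. PPARG, the receptor of the fat cell programme, was counted 47, 44 and 36 times in 1CT and 127, 151 and 157 times in 1CT-A. This is 5.56, 5.31 and 4.62 CPM in 1CT and 11.4, 13.3 and 12.5 CPM in 1CT-A. Each 1CT-A library lay at more than 2 times the highest 1CT library. The log2 fold change was 1.22 (standard error 0.16), a fold change of 2.32, and it stayed between 1.16 and 1.27 with each library left out. Of the 8558 genes tested with a mean of at least that of PPARG, 149 had a higher log2 fold change.

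PPARA, the receptor that turns on fatty acid oxidation in liver, was at 14.9, 15.9 and 19.0 CPM in 1CT and at 11.6, 13.5 and 11.9 CPM in 1CT-A. The lowest 1CT library stood 1.39 CPM above the highest 1CT-A library. Its log2 fold change of -0.47 (standard error 0.14) was called, but without 1CT-A replicate 3 it was -0.44 and no longer called. PPARD, the widely expressed receptor, was at 19.5, 17.6 and 12.6 CPM in 1CT and at 15.4, 14.2 and 15.4 CPM in 1CT-A. The 1CT libraries spread on both sides of those of 1CT-A. The log2 fold change of PPARD was -0.18 (standard error 0.15, 95% interval -0.51 to 0.14). It was not called, but without 1CT replicate 3, the lowest of its group, it was -0.33 and called.

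Added together, the counts on the 3 receptor genes summed to 38.4 ± 1.94 CPM in 1CT, close to the 39.7 ± 1.32 CPM of 1CT-A. PPARG took 12.8% to 13.9% of these counts in the 1CT libraries and 29.7% to 32.3% in the 1CT-A libraries. The exact 95% binomial interval reached at most 18.1% in a 1CT library and began at 25.4% or above in 1CT-A. These intervals cover counting error only. The share of PPARA was 37.3%, 41.0% and 52.5% in 1CT and 30.1%, 33.0% and 29.9% in 1CT-A. For PPARD the share was 48.8%, 45.3% and 34.8% in 1CT and 40.2%, 34.7% and 38.7% in 1CT-A. PPARG was thus the least counted of the 3 receptors in every 1CT library, and in 1CT-A its share lay close to that of PPARA.

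The RXR partners were counted at the level of the PPARs or above. RXRA, the main partner in most tissues, was at 45.6, 52.0 and 51.4 CPM in 1CT and at 56.4, 56.0 and 58.2 CPM in 1CT-A. All 1CT-A libraries were above all 1CT libraries, by 3.96 CPM at the nearest. Its log2 fold change was 0.16 (standard error 0.08) and was not called. RXRB, the second partner, was at 17.9, 15.5 and 16.7 CPM in 1CT and at 11.9, 14.1 and 15.1 CPM in 1CT-A. The log2 fold change of RXRB was -0.32 (standard error 0.13), again not called. RXRB is entered 6 times in each file, with all of its counts on 1 entry. In GENCODE release 44 on GRCh38 it shares 361 bases with SLC39A7 on the other strand, which had 1433 to 2308 counts. Reads come from the 3′ ends, and whether the shared bases lie at such an end was not looked up. Whether reads of SLC39A7 entered the RXRB counts, where the counting ignored strand, was not tested. RXRG, the third partner gene, had 0 counts in all 6 libraries, where 3 counts, the smallest number taken as visible, are 0.238 to 0.385 CPM.

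FABP5, which carries fatty acids in the cell and hands them to PPARD, was at 23.2, 25.5 and 23.0 CPM in 1CT and at 30.9, 32.0 and 32.8 CPM in 1CT-A. The 2 groups were 5.44 CPM apart at the nearest, and the log2 fold change of 0.38 (standard error 0.09) was called here and in all 13 other fits tried. FABP5 accounted for 81.0% to 86.1% of the counts on the 5 fatty acid binding protein genes followed here in 1CT and 90.6% to 94.8% in 1CT-A. FABP4, the fat cell relative, had 20, 17 and 12 counts in 1CT and 1, 0 and 1 in 1CT-A. FABP3, the heart relative, had 17 to 38 counts per library. FABP5P3, a copy of FABP5, had 1 to 7 counts per library, and reads could have been divided between such copies.

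ANGPTL4 was the gene with the most counts of the 10 in 1CT and the one that differed most. It encodes a secreted protein that blocks lipoprotein lipase, the enzyme that frees fatty acids from blood lipids. It had 11808, 10167 and 11524 counts in 1CT and 2587, 2671 and 2950 counts in 1CT-A. On the CPM scale this is 1397, 1228 and 1479.6 in 1CT and 232, 234 and 234 in 1CT-A. The 1CT-A libraries differed from each other by 0.600% of their mean (coefficient of variation), against 9.39% in 1CT, and every one was far below every 1CT library. The log2 fold change was -2.59 (standard error 0.08), 6.02-fold lower in 1CT-A, and stayed between -2.66 and -2.51 with each library left out.

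ANGPTL4 ranked between 75 and 86 among all symbols in the 1CT libraries and between 750 and 767 in the 1CT-A libraries. Of all 12514 genes tested, 341 had a lower log2 fold change. Among the 162 genes tested with a mean at least as high, 1 had a lower one, the nuclear RNA MALAT1. This mean is over both cell lines, so the cut leaves out genes that were high in 1CT and fell further. ANKRD1, named after its values were seen, went from 1092 CPM to 22.9 CPM (log2 fold change -5.62). ANGPTL4 held 72.0% to 75.0% of the counts on the 10 genes in 1CT and 31.3% to 31.8% in 1CT-A. Without ANGPTL4 the sum of the other 9 genes was 478 to 493 CPM in 1CT, with 498 to 515 CPM in 1CT-A. ANGPTL4 made up 98.9% to 99.2% of the counts on its family in 1CT and 88.1% to 89.7% in 1CT-A. ANGPTL2, a relative without known action on lipoprotein lipase, went the other way, from 6.89 ± 0.67 CPM to 24.8 ± 2.58 CPM (log2 fold change 1.81 with SE 0.14, edgeR adjusted p = 3.5e-07).

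PDK4 encodes a kinase that shuts off pyruvate dehydrogenase and so turns cells from glucose to fat as fuel. It had the fewest counts of the 10 genes, 36, 20 and 18 in 1CT and 9, 12 and 10 in 1CT-A. In CPM these are 4.26, 2.42 and 2.31 in 1CT and 0.807, 1.05 and 0.793 in 1CT-A. The lowest 1CT library was above the highest 1CT-A library, and 1CT replicate 1 stood apart from the other two. Its log2 fold change was -1.79 (standard error 0.35) and lay between -1.93 and -1.45 with each library left out. PDK4 passed the filter through the group where it was high, with 3 libraries of 1CT and 1 of 1CT-A above its level of 1.02 CPM.

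PDK4 took 11.9% to 19.6% of the PDK counts in 1CT and 4.95% to 6.32% in 1CT-A. PDK1, a kinase induced by low oxygen, took 56.3% to 61.4% and 84.7% to 89.1%, with means of 11.8 ± 1.34 and 14.0 ± 0.45 CPM (log2 fold change 0.20, standard error 0.13, edgeR adjusted p = 0.23). PDK2 had 19, 26 and 21 counts in 1CT and 9, 17 and 9 in 1CT-A, and PDK3 had 16, 13 and 27 counts in 1CT and 1, 0 and 3 in 1CT-A. Both passed the filter through 1CT alone, with 1 library of 1CT-A above its level for PDK2 and 0 for PDK3, so that no test of them is given.

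**Figure D2:**
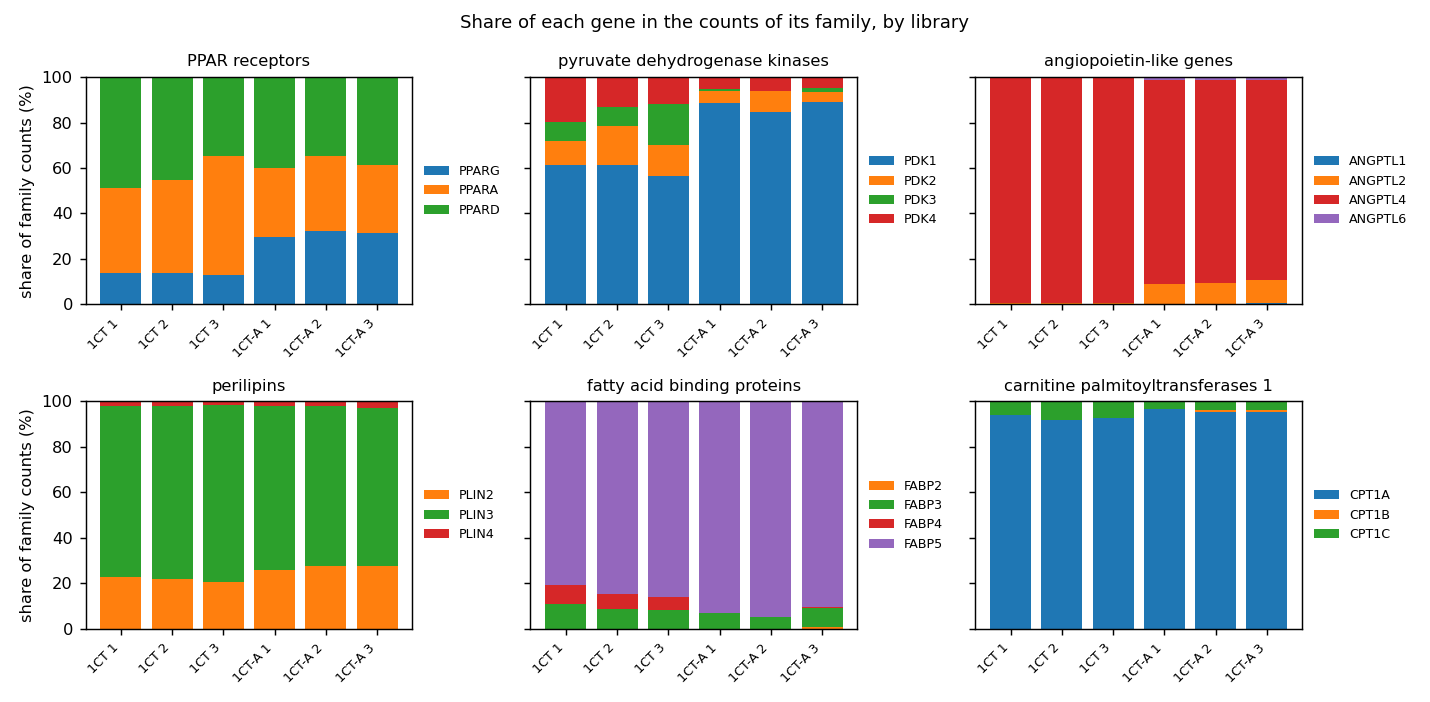
Share in percent of each gene in the counts of its family, as stacked bars for 6 families in the 6 libraries, leaving out genes with at most 3 counts in every library. The PPARG share is 12.8% to 13.9% in 1CT and 29.7% to 32.3% in 1CT-A, PDK1 goes from at most 61.4% to at least 84.7%, and ANGPTL2 appears beside ANGPTL4 in 1CT-A.

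CPT1A encodes the gate enzyme that moves long fatty acids into mitochondria. It was at 67.2, 74.0 and 70.5 CPM in 1CT and at 75.9, 75.4 and 74.3 CPM in 1CT-A. The groups did not overlap, but the nearest libraries were 0.333 CPM apart. Its log2 fold change was 0.05 (standard error 0.08, 95% interval -0.11 to 0.22) and was not called. CPT1A held 91.9% to 94.2% of the CPT1 counts in 1CT and 95.4% to 96.8% in 1CT-A. CPT1C, the brain form, fell from 5.44 ± 1.20 CPM to 2.75 ± 0.21 CPM (log2 fold change -1.01 with SE 0.23, edgeR adjusted p = 0.00279). CPT1B, the muscle form, had no counts in 1CT and 0, 8 and 9 counts in 1CT-A.

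PLIN2 coats lipid droplets. It was at 284, 270.0 and 293 CPM in 1CT and at 284, 296 and 287 CPM in 1CT-A, so the groups overlapped. The log2 fold change of -0.01 (standard error 0.07) had a 95% interval from -0.15 to 0.14, and its sign turned in 5 of 13 other fits. PLIN2 was the most counted of the 10 genes in 1CT-A. PLIN3, the coat protein found in most tissues, was more abundant, at 995 ± 95.8 CPM in 1CT, and fell to 757 ± 36.8 CPM in 1CT-A (log2 fold change -0.43, standard error 0.08, edgeR adjusted p = 5.3e-04). PLIN4 was at 23.8 ± 3.94 CPM and 23.8 ± 3.81 CPM. PLIN1, which coats the droplets of fat cells, and PLIN5, of heart and muscle, had at most 2 and 1 counts in a library.

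In order of level, ANGPTL4 led in 1CT, followed by PLIN2, CPT1A, RXRA and FABP5. RXRB, PPARA and PPARD came next at means of 16.7, 16.6 and 16.6 CPM, with ranges that overlapped, and PPARG and PDK4 were last. In 1CT-A, PLIN2 at 289 CPM stood before ANGPTL4 at 234 CPM without overlap. CPT1A, RXRA and FABP5 kept their places. PPARD, RXRB, PPARG and PPARA then formed a group between 15.0 and 12.3 CPM, in which neighbours overlapped.

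**Figure D3:**
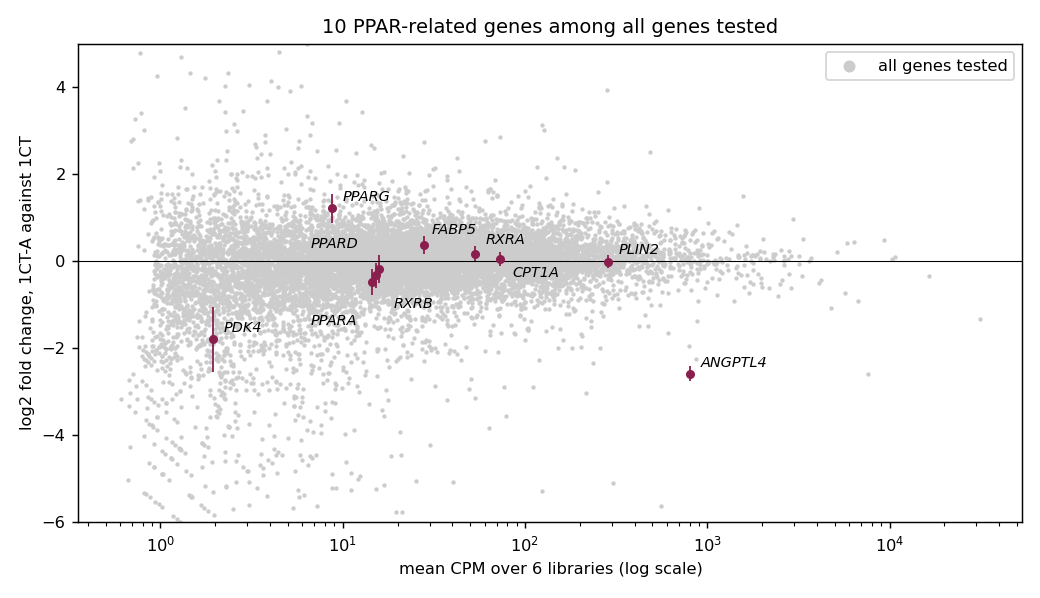
The log2 difference between 1CT-A and 1CT plotted against the mean CPM over the 6 libraries (log axis) for all genes tested (grey) and for the 10 genes (dark red, with 95% intervals). ANGPTL4 at -2.59 stands below almost all genes with at least its mean, and PLIN2 at -0.01 lies at the centre. The axis runs from -6 to 5, and 54 grey genes lie outside it.

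The wider PPAR pathway was followed through 111 genes in lists by role, none of them among the 10. Of the 78 that could be tested, 45 were called (57.7%, against 51.0% of all genes), 18 of them higher (23.1%, against 25.0%) and 27 lower (34.6%, against 26.0%). Their median log2 fold change was -0.05, and that of all genes was -0.01. With those limits of the study 3 were higher and 7 lower, and 13.4% of all genes passed in either direction. The share of all genes in each direction at these limits was not counted, so nothing is read from that split. Of the 27 called lower, 5 (FABP4, ACSL5, UCP3, PDK2 and PDK3) passed the filter through 1CT alone, where they were high, and of the 18 called higher 0 did so through 1CT-A alone. All 5 are also among the 7 lower genes at the limits of the study. ACSL5 and UCP3 are named after their values were seen, and the counts and medians of the lists below include all 5.

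Among the genes of fatty acid uptake, binding and activation, 3 of 11 tested were called higher (27.3%, against 25.0% of all genes). Lower were 5 (45.5%, against 26.0%), of which FABP4 and ACSL5 passed the filter through 1CT alone. The median log2 fold change of these genes was -0.19. DBI, a carrier of fatty acids bound to coenzyme A and the most counted of them, rose from 475 ± 27.7 CPM to 683 ± 32.6 CPM (log2 fold change 0.48 with SE 0.07, edgeR adjusted p = 7.4e-05). ACSL3 and ACSL4, which attach coenzyme A to fatty acids, were the other genes that rose, by log2 fold changes of 0.76 (standard error 0.10) and 0.63 (standard error 0.10), and are named here after their values were seen. CD36, a fatty acid receptor and PPARG target also named afterwards, had at most 3 counts in a library.

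Among the genes of mitochondrial fatty acid oxidation, 4 of 17 tested were called higher (23.5%, against 25.0% of all genes). Lower were 7 (41.2%, against 26.0%), of which UCP3 passed the filter through 1CT alone, and the median was -0.25. ETFA, which takes up electrons from the oxidation steps, rose from 251 ± 28.6 CPM to 310 ± 21.8 CPM (log2 fold change 0.27 with SE 0.08, edgeR adjusted p = 0.0175). UCP2, an uncoupling protein gene, fell from 10.3 ± 1.96 CPM to 3.79 ± 1.12 CPM (log2 fold change -1.47 with SE 0.22, edgeR adjusted p = 1.2e-04). SLC25A20, whose product works next to CPT1A in carrying fatty acids inward, fell by 0.71 on the log2 scale (standard error 0.11), and is named after its value was seen. In peroxisomes, 2 of 11 tested rose (18.2%, against 25.0%) and 3 fell (27.3%, against 26.0%), with a median of -0.01. ACAA1, which ends the oxidation cycle there, fell by 0.48 (standard error 0.10, edgeR adjusted p = 0.00135).

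Of the lipid droplet and storage genes, 1 of 11 tested rose (9.09%, against 25.0% of all genes) and 5 fell (45.5%, against 26.0%). Their median was -0.07. PLIN3, described above, was the most counted. Of the coactivators and corepressors, 2 of 11 tested rose (18.2%, against 25.0%) and 3 fell (27.3%, against 26.0%), with a median of 0.04. MED1, the Mediator subunit that binds PPARs, rose from 143 ± 18.6 CPM to 190.1 ± 4.85 CPM (log2 fold change 0.37 with SE 0.09, edgeR adjusted p = 0.00311). PPARGC1A, the best known coactivator of PPARs and named after its counts were seen, had at most 3 counts in a library.

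The kinases and phosphatases of pyruvate dehydrogenase were called lower in 3 of 5 cases and higher in none, with a median of -0.46, but 2 of the 3, PDK2 and PDK3, passed the filter through 1CT alone. The phosphatase gene PDP2, the most counted, was at 23.5 ± 4.96 CPM and 26.0 ± 1.80 CPM (log2 fold change 0.11 with SE 0.14, edgeR adjusted p = 0.54). Of the angiopoietin-like relatives, 2 could be tested. ANGPTL2 rose (50.0%, against 25.0% of all genes) and ANGPTL6, named after its value was seen, fell (50.0%, against 26.0%).

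Of the other nuclear receptors that pair with RXR, 4 of 8 tested rose (50.0%, against 25.0% of all genes) and none fell (against 26.0%). Their median was 0.47. THRB, a thyroid hormone receptor gene, rose from 3.48 ± 1.15 CPM to 20.3 ± 1.23 CPM (log2 fold change 2.49 with SE 0.19, edgeR adjusted p = 3.0e-07). The other 3 were the oxysterol receptor gene NR1H3, the retinoic acid receptor gene RARA and the vitamin D receptor gene VDR, with log2 fold changes of 0.68, 0.61 and 0.55, and were named after their values were seen. THRA, the most counted, was at 15.3 ± 0.84 CPM and 18.2 ± 4.17 CPM. Of 10 genes known as PPAR targets in fat cells or liver, 6 had at most 3 counts in every library and 2 passed the filter, with log2 fold changes on both sides of 0. ABCA1, a cholesterol exporter, rose from 3.35 ± 0.51 CPM to 7.50 ± 0.14 CPM (log2 fold change 1.12 with SE 0.19, edgeR adjusted p = 3.3e-04). CYP27A1, which oxidizes cholesterol on the way to bile acids, was at 1.85 ± 0.68 CPM and 1.24 ± 0.32 CPM (log2 fold change -0.59 with SE 0.37, edgeR adjusted p = 0.198), was not called and is named after its value was seen.

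**Figure D4:**
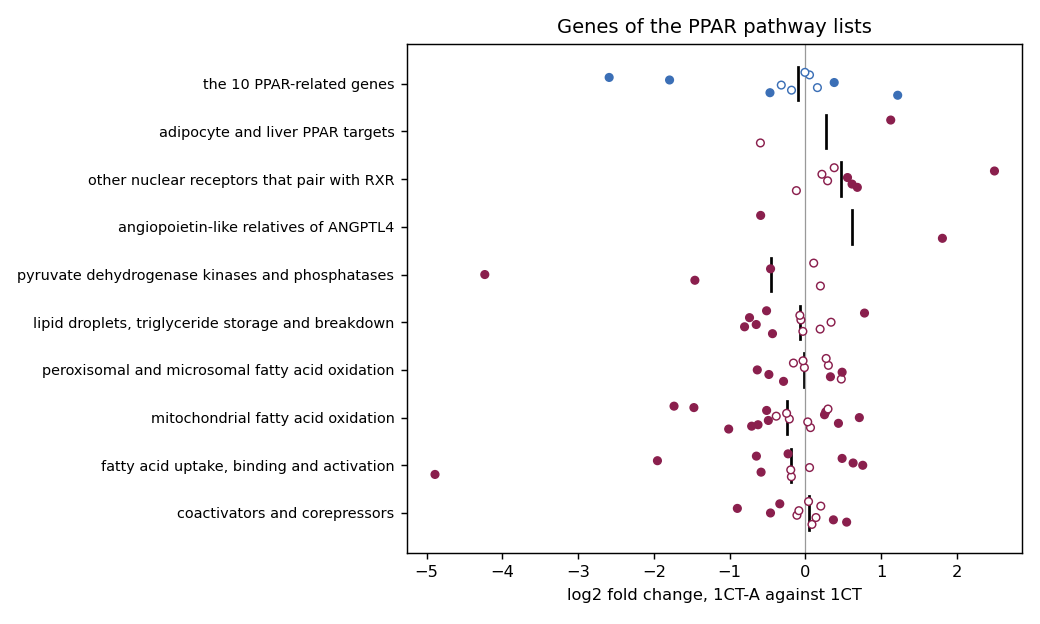
The log2 difference between 1CT-A and 1CT for each tested gene of the pathway lists (dark red) and for the 10 genes (blue), filled where the adjusted p was under 0.05, with a bar at each median. Medians run from -0.46 for the pyruvate dehydrogenase enzymes to 0.61 for the 2 angiopoietin-like relatives, and lists hold genes on both sides of 0.

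Markers of other cell types were summed beside these values. Of 7 fat cell markers, ADIPOQ, LEP, PLIN1 and CIDEC had at most 3 counts in every library, and the sum of the 7 ranged from 7.45 to 11.7 CPM in 1CT and from 2.60 to 4.39 CPM in 1CT-A, with CFD the highest by its mean in both. Of 8 macrophage markers, PTPRC, CD163, TYROBP and AIF1 had at most 3 counts in every library, and the sum of the 8 ranged from 12.7 to 15.4 CPM in 1CT and from 9.52 to 10.4 CPM in 1CT-A, led by CD68 and CD14. For the 12 colon epithelium markers the sum was 13.4 to 17.6 CPM in 1CT, with 3.23 to 7.20 CPM in 1CT-A. The 12 mesenchymal markers summed to 4981 to 6042 CPM in 1CT, and in 1CT-A the range was 4621 to 4939 CPM. The part of these shifts, and of the greater depth of the 1CT-A libraries, in the differences above was not tested. In bulk samples, fewer cells that express a gene and less RNA of it per cell cannot be told apart.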

How the data were processed

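RNA-seq was available for 3 libraries of 1CT and 3 of 1CT-A. Per the labels, QuantSeq 3′ libraries were made from 500 ng of total RNA and sequenced on a NextSeq 500. The authors deposited raw counts per gene symbol, 1 file per library, without normalization or pooling. The submitters' processing notes name Bowtie2, edgeR and hg19, without versions. The counting tool, annotation and strand setting are not given in the sources used here.

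Repeated entries of a symbol (286 symbols) were added together. Levels of single genes are CPM of the library total. 1CT-A was compared with 1CT by the quasi-likelihood test of edgeR 4.0.16 in R 4.3.3, with TMM factors from 0.976 to 1.02, filterByExpr at a minimum count of 10, and Benjamini-Hochberg adjustment over 12514 genes. A count model was used in place of the test on single genes in the methods of the study, because the files hold counts. The fit was tested on simulated data. Medians of all log2 fold changes were -0.01, and 0.03 with library size only. No p value is printed for the 10 genes. Standard errors of log2 fold changes were derived from the test, as the absolute log2 fold change over the square root of its F statistic. Intervals of log2 fold changes are built on these standard errors and are unadjusted. Shares have exact Clopper-Pearson intervals (scipy 1.17.1).

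The members and lists were chosen with earlier results of these data known. Named pathway genes are the most counted of each list, those called with an absolute log2 fold change of at least 1 and a mean of at least 5 CPM, and close relatives of the members. Others are said to be named after their values were seen. Older symbols were matched through RefSeq. Promoter windows came from RefSeq (GRCh38.p14), gene overlaps from GENCODE release 44.

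The alternatives were other scalings and filters, DESeq2 1.42.0, limma-voom (limma 3.58.1), a replicate block, stricter thresholds and each library left out.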

Additional observations from a re-analysis of the deposited data

How the results depend on the processing

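The number of the 10 genes called was 5. It was 4 to 6 with each library left out, and pathway genes called numbered 16 to 19 higher and 19 to 29 lower, where the main numbers were 18 and 27. The share of all genes called is not given for the other fits. These numbers therefore show only how far the counts moved. The study's thresholds add a fold limit and replace the adjusted by an unadjusted p. They gave 3 of the 10 genes, and 3 higher and 7 lower pathway genes, where 13.4% of all genes passed in either direction. Of these 7, 5 passed the filter through 1CT alone. At least 10 counts in every library gave 4 of the 10 genes, because PDK4 was no longer tested. The other scalings, filters and tools kept each number within 1.5 times. The replicate numbers were not used to pair the libraries in the main fit. Libraries with the same number deviated from their cell line means with correlations of -0.161, 0.22 and -0.139 over 8224 genes. So few libraries cannot tell whether a replicate number marks a shared batch. The replicate block gave 5 of the 10 genes and 18 higher and 26 lower pathway genes. The log2 fold change of PLIN2, never called, turned to 0.031 with library size only and to 0.039 without a filter on low counts, and ran from -0.040 to 0.037 with each library left out. Calls of PPARA and PPARD turned on 1 library each, as given above, and no other call of the 10 genes changed with another scaling, filter, tool or library left out where the gene was tested. The cause was not tested. With 9 to 36 counts per library, PDK4 is the least precise of the 10 genes.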
